A study of Mus musculus with 31 samples.

Results

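The 10 mouse loci described here were chosen by the accessibility of their deposited peaks soon after an injection of interleukin 2 (IL2), in the same libraries that this text describes at 0.75 h. They are Aven, Jazf1, Muc4, Abhd18, Gm13481, Plekha5, Sgpp1, Man1a, Naf1 and Spef2. A peak belonged to a locus when the deposited annotation listed that gene for it, and a locus was taken when 6 or more of its peaks were higher in IL2 than in PBS libraries at 0.75 h, with an adjusted p under 0.05 in edgeR. The loci held 311 of 104979 peaks, and 81 of those 311 had risen by that rule, among 490 such peaks in all. Spef2 lay just inside the threshold with 6 risen peaks, and 6 genes lay just outside it with 5 each, namely Bcl2, Flacc1, Foxp1, Gm15518, Gm17490 and Gm20696.

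The assay was ATAC-seq, in which a transposase cuts accessible DNA, on regulatory T cells (Tregs) sorted from spleens of C57BL/6 mice with an RFP reporter of Foxp3. The mice had been given 20 µg of FP, which joins mouse IL-2 to its receptor chain CD25, or 5 µg of mouse IL-2 (IL2), or 100 µL of PBS. FP, IL2 and PBS groups of 3 libraries each were made at 0.75 h and again at 16 h. At 72 h there were 3 FP and 3 PBS libraries and at 168 h 4 FP and 3 PBS libraries, which made 31 libraries in 10 groups with no IL2 group at the last 2 times.

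Interleukin 2 binds a receptor made of CD25, CD122 and the common gamma chain, and the kinases JAK1 and JAK3 bound to that receptor phosphorylate STAT5. Paired STAT5 molecules bind DNA at the palindrome TTCNNNGAA, in which N is any base, and recruit proteins that activate nearby genes. Tregs carry much CD25, do not make IL-2 themselves in quantity and depend on it for their survival and their suppressive function. An enhancer can act on a gene other than the one it lies in, so the gene names below give positions and not targets.

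Library totals ran from 7.39 to 59.6 M counts (M, mega). PBS replicate 1 and FP replicate 2 of 168 h, with 7.39 and 12.3 M, correlated least with the other libraries (mean r of log2 values across peaks 0.736 and 0.778, as a description). Promoter peaks were present at all 6 Treg and T cell markers (Foxp3, Il2ra, Ctla4, Ikzf2, Cd4 and Cd3e), and their summed level in the PBS libraries of 0.75 h was 64.7 to 71.7 CPM, which are counts per M counts of the library after TMM scaling. Within that list Cd4 was low, at 0.651 to 2.31 CPM, and Cd3e had 3.26 to 9.15 CPM. In the same libraries the B cell list summed to 1.97 to 4.21 CPM, the NK cell list to 0.14 to 1.46 CPM and the CD8 T cell list to 6.93 to 12 CPM. The myeloid list summed to 3.48 to 7.81 CPM and the erythroid list to 3.41 to 6 CPM. These sums rest on promoter peaks at 2 of 4 B cell genes, 1 of 2 NK cell genes and 1 of 2 CD8 T cell genes (Cd8b1). They rest on 1 of 4 myeloid genes (Cd14) and 1 of 4 erythroid genes, against 6 genes in the Treg and T cell list. The sums therefore do not compare levels per gene. Ms4a1, Ncr1 and Csf1r had no peak of any kind, while Lyz2, Itgam and Cd8a had peaks, none of them at a promoter. Each time carries its own date in the sample labels, so time and date cannot be told apart, and every effect was measured within 1 time. The sample titles of 168 h, and no others, also carry the mark 2runs, which cannot be told apart from that time. Whether each library came from its own animal is not stated in the labels, and the p-values rest on the spread between libraries, which may be technical. In bulk Tregs a larger share of cells with an open region and a more open region in each cell cannot be told apart.

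The 81 risen peaks were not 81 separate elements. After peaks that overlapped by at least 1 bp were merged, the 311 peaks formed 154 regions, and the risen ones fell into 11 of them, 1 in each locus and 2 in Naf1. These 11 opened regions held 16.5% of all risen peaks but made up 2.84% of the 388 opened regions of the whole table. In 366 of the 388 opened regions there was 1 risen peak, and 10 had 6 or more, all of them in these loci. Regions with 6 or more peaks of any kind were 4.9% of the opened regions and 3.69% of all 73159 regions. The count of peaks that defines these loci was thus a count of overlapping intervals over the same DNA. By locus, Aven and Jazf1 had 10 risen peaks each, Muc4 had 9, Abhd18, Gm13481, Plekha5 and Sgpp1 had 8 each and Man1a had 7. Naf1 had 6 in its intronic region and 1 at its promoter. The widest risen peak of each region stands for it below. The 81 became 19 without IL2 replicate 1, 29 without IL2 replicate 3, 36 without PBS replicate 1 and 24 without PBS replicate 3 of 0.75 h, and at an adjusted p under 0.01 only 7 of the 11 regions would have held a risen peak, 6 of them by their widest risen peak.

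Most opened regions lay inside genes and away from start sites (GRCm38, GENCODE M21). The Aven region (chr2:112506734-112507821) and the Jazf1 region (chr6:52801659-52802828) were intronic, 14313 and 266388 bp from the start of their gene. Aven encodes an inhibitor of apoptosis that binds Bcl-xL and Apaf1, and Jazf1 encodes a zinc finger protein of a histone acetyltransferase complex. The Man1a region (chr10:54009045-54010007) lay in an intron 67083 bp from the start of a gene for a Golgi mannosidase that trims N-glycans. The Sgpp1 region (chr12:75726348-75727787) lay 8662 bp into a gene for a phosphatase of sphingosine 1-phosphate, the lipid that guides lymphocytes out of lymphoid tissue. The Plekha5 region (chr6:140466038-140467131) was intronic in a gene for a pleckstrin homology domain protein, 42530 bp from its start.

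The Naf1 promoter region (chr8:66860923-66862139) touched an annotated start site and an exon of Naf1, and the Naf1 intronic region (chr8:66876835-66877771) lay 17086 bp from the start of the gene. Naf1 encodes an assembly factor of H/ACA ribonucleoproteins, the class that includes telomerase RNA. Gm13481 is a long intergenic noncoding RNA gene, and its opened region (chr2:48156133-48157312) was intronic, 300523 bp from its start. The nearest protein-coding genes were Acvr2a, 656797 bp away on the right, and Zeb2, 3038738 bp away on the left. The Abhd18 region (chr3:40903034-40903947) lay in an intron of that gene, which encodes an alpha/beta hydrolase fold protein, 491 bp from 1700034I23Rik. The deposited annotation called 7 of its peaks promoter and 3 intron. The Muc4 region (chr16:32750475-32751415) was labelled 3' end by the deposit, whereas GENCODE places it over an exon outside any UTR, 15059 bp from the start of this gene for a membrane mucin. The Spef2 region (chr15:9667534-9668989) overlapped an exon and an intron of a gene for a sperm flagellar protein, and the nearest protein-coding neighbour was Il7r, the gene of the IL-7 receptor, 137358 bp away. Of the 11, 2 were within 1 kb of an annotated start site, a share to set beside 11.4% of the other 377 opened regions and 28% of all merged regions.

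Within a merged region the peaks could differ in their values. In the Sgpp1 region 8 overlapping peaks had risen with IL2, and 12 further peaks covered the adjoining DNA (widest chr12:75727152-75727786). That neighbouring part had 5.14, 7.54 and 8.87 CPM in IL2 libraries, against 8.04, 8.53 and 6.05 CPM in PBS libraries at 0.75 h, so the groups overlapped. In the Spef2 region the risen peaks were 6 and the adjoining exonic part had 8 peaks (widest chr15:9668543-9668989). This part had 0.764, 2.26 and 0.796 CPM in IL2 libraries, against 3.71, 2.17 and 2.93 CPM in PBS libraries, a log2 fold change of -1.21 that did not pass the test (SE 0.52, adjusted p = 0.759 in edgeR). In the Aven region the adjoining 8 peaks (widest chr2:112507410-112507808) were higher by 1.00 on the log2 scale (SE 0.26, adjusted p = 0.15 in edgeR), which left them outside the rule. All 3 neighbouring parts were picked out after their values were seen. The widest adjoining peaks of Muc4 and Abhd18 were higher in IL2 at 0.75 h by 2.18 and 1.76 on the log2 scale (SE 0.58 and 0.46). Those of Jazf1 and the Naf1 intronic region were higher by 0.93 and 0.56 (SE 1.29 and 0.42). None of these adjoining peaks passed the test in edgeR. The 8 risen Abhd18 peaks shared no common base, while those of the other regions with several risen peaks shared between 91 bp (Gm13481) and 517 bp (Jazf1).

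**Figure D1:**
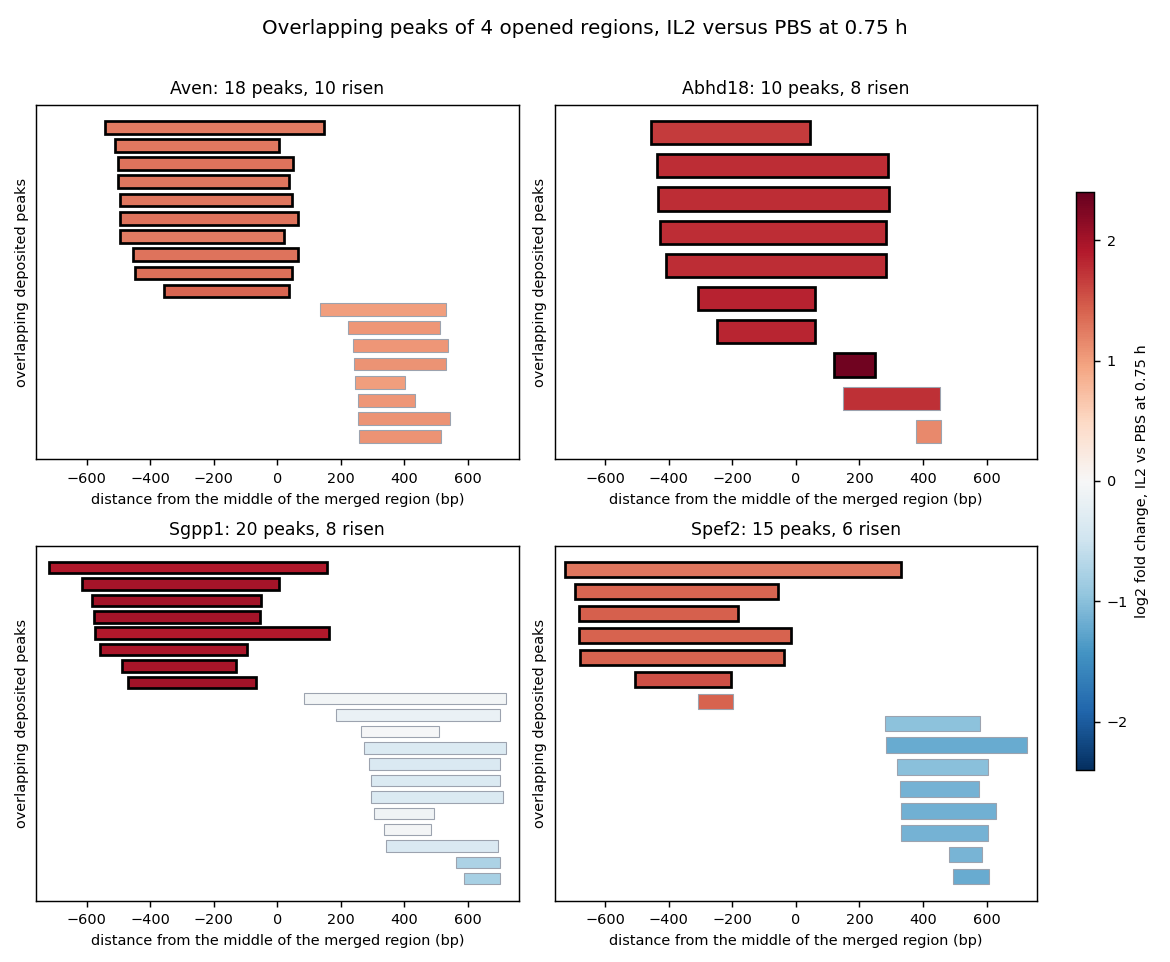
Deposited peaks of the Aven, Abhd18, Sgpp1 and Spef2 regions, drawn as bars by distance in bp from the middle of the merged region, coloured by log2 fold change of IL2 over PBS at 0.75 h (n = 3 each) and outlined in black where the rule counted them as risen. The 10 risen Aven peaks and the 8 risen Sgpp1 peaks pile up on one side, and the 8 unrisen Spef2 peaks on the right run from -1.22 to -0.99.

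The STAT5 palindrome TTCNNNGAA, which reads the same on both strands, occurred in 9 of the 11 opened regions (81.8%). It occurred in 88.6% of the other 377 opened regions, in 23.1% of the other 143 regions of the same loci and in 26.4% of the 10197 merged regions of the table with lengths between 914 and 1456 bp, the range of the 11. In the central 300 bp of the representative peak it occurred in 6 of 11 regions (54.5%), against 10.8% of such windows over all merged regions. Mean length was 1127.3 bp in the 11, 725.9 bp in the other opened regions and 506.1 bp in the other regions of the loci. Longer DNA has more room for a match, so only the 10197 regions and the 300 bp windows compare like lengths. Neither was matched for GC content. These shares describe letters and not binding, and were not tested. Stretches of 141 bases follow, from RefSeq GRCm38 on the plus strand, 5′ to 3′, with each TTCNNNGAA match in capitals. They show the match nearest the middle of the shared DNA in the 6 regions where a match lies in the DNA that all risen peaks share, and in Man1a, which had the largest IL2 fold change. The last is the middle of the DNA shared by the risen Plekha5 peaks, in a region that with Muc4 had no match.
Aven chr2:112507161-112507301: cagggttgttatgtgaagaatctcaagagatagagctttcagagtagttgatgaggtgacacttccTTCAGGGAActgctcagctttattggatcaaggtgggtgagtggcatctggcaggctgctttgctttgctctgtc
Jazf1 chr6:52802283-52802423: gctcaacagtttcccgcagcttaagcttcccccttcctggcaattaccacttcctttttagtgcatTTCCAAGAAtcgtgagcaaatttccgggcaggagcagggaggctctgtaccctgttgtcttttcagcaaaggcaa
Sgpp1 chr12:75726637-75726777: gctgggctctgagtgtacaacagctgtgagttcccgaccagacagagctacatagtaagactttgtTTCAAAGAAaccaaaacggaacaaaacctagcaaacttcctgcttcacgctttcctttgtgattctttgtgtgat
Naf1 intronic chr8:66877098-66877238: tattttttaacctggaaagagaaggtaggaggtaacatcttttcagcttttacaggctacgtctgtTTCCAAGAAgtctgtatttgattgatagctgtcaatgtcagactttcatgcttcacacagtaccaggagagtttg
Naf1 promoter chr8:66861613-66861753: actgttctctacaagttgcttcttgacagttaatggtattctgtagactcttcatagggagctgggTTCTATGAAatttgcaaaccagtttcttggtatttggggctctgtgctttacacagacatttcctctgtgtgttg
Spef2 chr15:9667853-9667993: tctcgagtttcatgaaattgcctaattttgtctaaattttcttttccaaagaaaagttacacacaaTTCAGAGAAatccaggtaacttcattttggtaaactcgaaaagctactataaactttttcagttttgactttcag
Man1a chr10:54009566-54009706: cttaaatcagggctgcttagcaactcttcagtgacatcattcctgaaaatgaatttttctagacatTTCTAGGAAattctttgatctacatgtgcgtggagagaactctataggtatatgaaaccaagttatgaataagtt
Plekha5 chr6:140466454-140466594: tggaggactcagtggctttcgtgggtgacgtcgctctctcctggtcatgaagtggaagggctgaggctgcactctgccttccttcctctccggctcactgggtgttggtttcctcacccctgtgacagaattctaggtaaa

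The matched letters differed between regions outside the fixed TTC and GAA. The Jazf1 and Naf1 intronic matches were the same 9 letters, TTCCAAGAA, and the Naf1 promoter shared TTCTATGAA with a second match in Man1a. Jazf1, Abhd18, Man1a and Spef2 held 2 matches each, and the 2 Abhd18 matches lay 5 and 51 bp from the middle of its widest risen peak. Of 7 other motifs searched on both strands, the AP-1 site TGANTCA was in 6 of 11 regions, against 22.9% of regions of like length. The STAT6-type palindrome, which has 1 more free base between TTC and GAA and can share letters with the STAT5 palindrome, was also in 6 of 11, against 20.1%. NFAT TGGAAAA was in 5 of 11, against 17.5%, and RUNX TGTGGTT and TCF/LEF CTTTGAT were in 4 each, against 20.9% and 12.3%. Forkhead TGTTTAC was in 1 of 11, against 11.5%, and ETS CCGGAAGT in 0 of 11, against 9.09%. GC content ran from 33.8% in Spef2 to 52.2% at the Naf1 promoter, where regions of like length had a median of 57%. With 11 regions, 1 region more or less moves each of these shares widely.

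At 0.75 h, the contrast that chose the loci, all 11 regions were higher in IL2 than in PBS libraries by construction, and their values are given as a description. For orientation, 0.488% of all tested peaks passed the same call as rises, and 6.37% had IL2 libraries wholly above PBS libraries. Man1a had the largest fold change, with 21.8, 22.1 and 15.9 CPM in IL2 libraries, against 6.59, 2.75 and 5.21 CPM in PBS libraries. Sgpp1 had 21.7, 22.7 and 20.9 CPM in IL2 libraries, against 7.16, 6.26 and 3.77 CPM in PBS libraries. The Naf1 promoter had the highest level and the smallest fold change, with 63.5, 50.1 and 57.5 CPM in IL2 libraries, against 31.8, 25.5 and 28.2 CPM in PBS libraries. The log2 fold changes were 2.03 for Man1a, 1.92 for Sgpp1 and 1.00 for the Naf1 promoter (SE 0.29, 0.26 and 0.19), and those of the other 8 regions ran from 1.25 (Aven) to 1.78 (Naf1 intronic). The median of the 11 was 1.64. Their PBS level per representative peak had a median of 5.81 CPM. It was 3.5 CPM in the other opened regions, 2.557 CPM in the other regions of the loci and 1.754 CPM over all merged regions. CPM was not corrected for peak width. The representative peaks of the 11 were 690 to 1217 bp wide, where the median width of all deposited peaks was 366 bp, so these levels do not compare openness per base.

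FP at 0.75 h was measured against the same PBS libraries, so its values are set beside those of IL2 and test nothing about the choice. In FP libraries the Man1a region had 11.8, 11.5 and 12.3 CPM, all above PBS and all below IL2. Plekha5 had 7.91, 6.61 and 9.54 CPM in FP libraries, against 8.35, 4.43 and 4.65 CPM in PBS libraries, and these groups overlapped. Jazf1 had 16.8, 12.5 and 11.9 CPM in FP libraries, which overlapped the 17.9, 13.8 and 17.2 CPM of its IL2 libraries. All 11 fold changes of FP over PBS were positive, from 0.46 (Plekha5) to 1.40 (Jazf1), with a median of 1.02, and in 9 regions the FP libraries lay wholly above PBS, where 4.81% of all peaks did. None of the 11 regions and 0 of 304 tested member peaks passed as a rise for FP (edgeR quasi-likelihood test, Benjamini-Hochberg over 100468 peaks), where the background was 0.00199%. At an unadjusted p under 0.05 there were 81 of 304 member peaks, against 3.15% of all tested peaks. Of these, 66 were peaks risen with IL2 that overlap within the 11 regions, so the share counts the same DNA many times. By region, 9 of the 11 had such a p. DESeq2 called 27 of the 215 member peaks to which it gave an adjusted p, against 0.426% of all such peaks, and 4 of the 11 regions (Jazf1, Sgpp1, Man1a and Naf1 intronic). In 10 of 11 regions FP libraries were wholly below IL2 libraries, where 4.81% of peaks were, and 0 member peaks passed as a fall or a rise (background 0% for both in edgeR). At an unadjusted p under 0.05 there were 70 of 304 overlapping and other member peaks, where 3.66% of all tested peaks were, and 8 of the 11 regions. The regions were chosen for high values in these same IL2 libraries, so nothing is read from the counts of FP below IL2. The choice also favoured low values in the same PBS libraries. Nothing is therefore read from the counts of FP above PBS, in edgeR or in DESeq2.

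**Figure D2:**
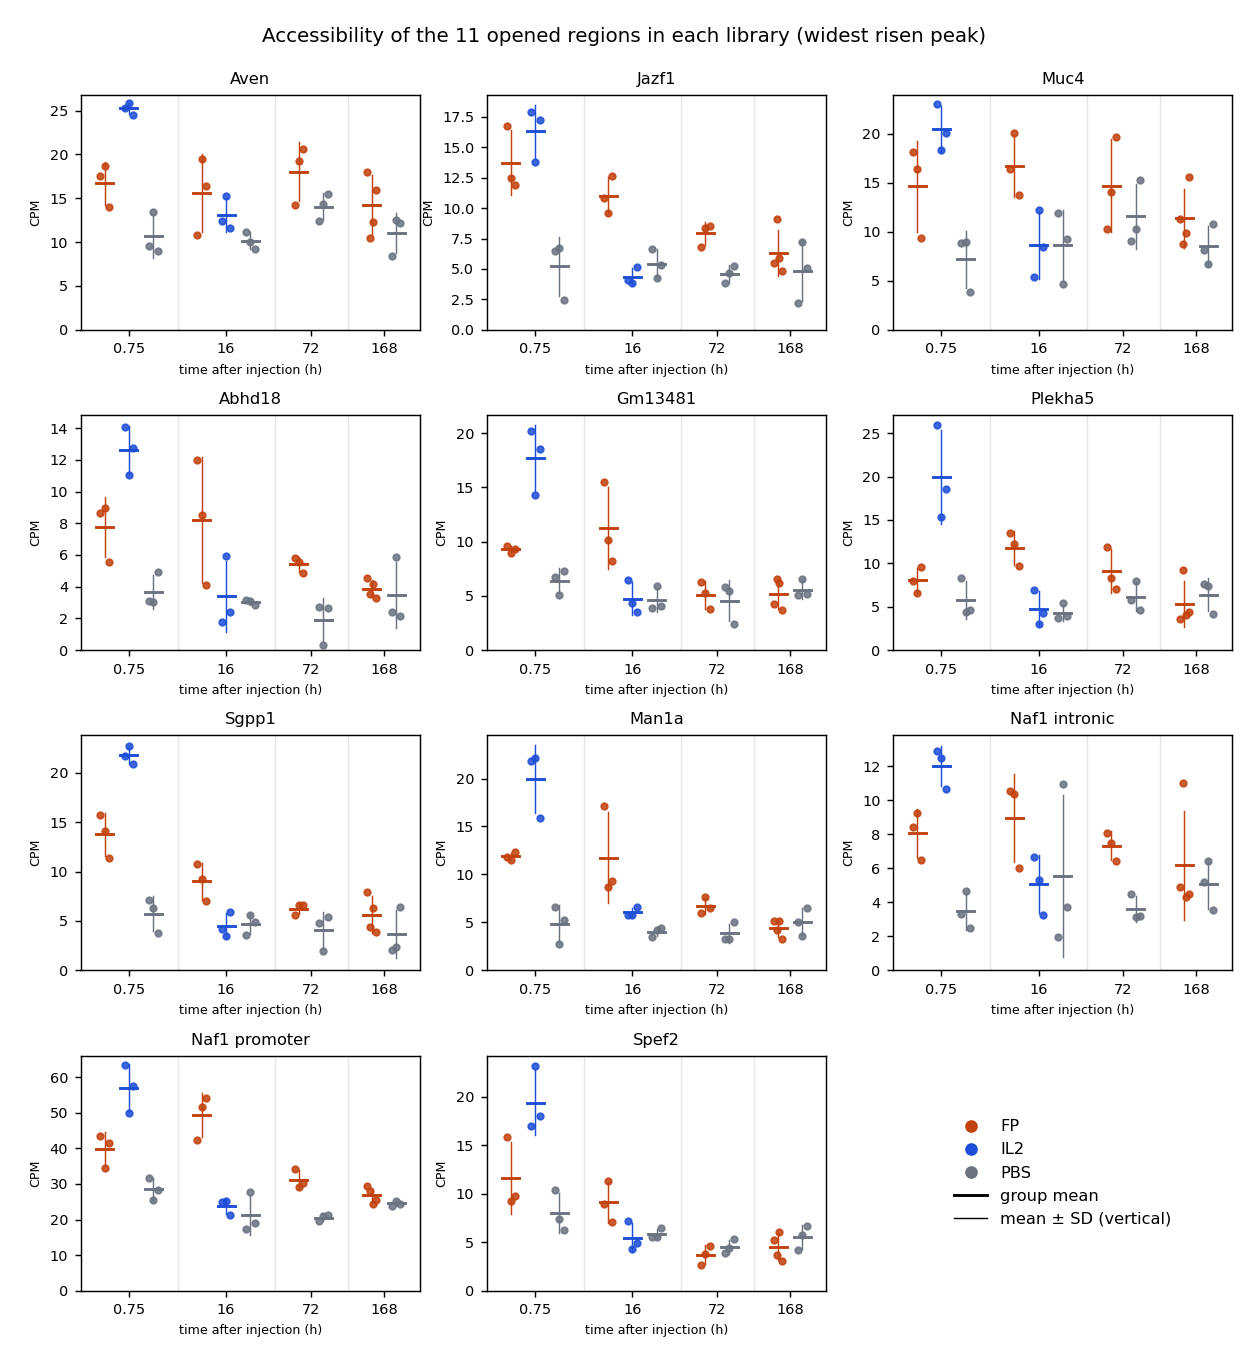
Accessibility of the widest risen peak of each of the 11 opened regions in all 31 libraries, in CPM, by hours after injection, with FP left of IL2 and PBS. Points are libraries, bars the group mean and vertical lines the SD. At 16 h the 3 FP libraries of the Naf1 promoter (42.4 to 54.2 CPM) stand above the IL2 and PBS libraries (17.2 to 27.6 CPM), and at 168 h the groups overlap in every panel.

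The libraries of 16 h were separate from those used to choose the loci. In them accessibility rose after FP, relative to PBS, at Man1a and the Naf1 promoter, and the other 9 regions did not pass the test. All 11 regions had a positive fold change of FP over PBS, with a median of 1.02, where the median of all tested peaks was -0.02. The FP libraries lay wholly above the PBS libraries in 9 of 11 regions, against 6.88% of all tested peaks, and 10 regions had an unadjusted p under 0.05, as had 5.31% of all tested peaks. Both calls are from edgeR with Benjamini-Hochberg adjustment over 100771 peaks, and 6 of 306 tested member peaks passed as rises (1.96%), against 0.114% of all tested peaks. Those 6 were the Naf1 promoter peak, 4 peaks of Man1a and 1 of Plekha5, so they stand for 3 separate regions.

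The Naf1 promoter had 42.4, 51.6 and 54.2 CPM in FP libraries, against 17.2, 27.6 and 19 CPM in PBS libraries at 16 h. The groups did not overlap, and the means of 49.4 ± 6.2 and 21.3 ± 5.57 CPM (SD, n = 3 each) differed by 1.22 on the log2 scale (SE 0.20, adjusted p = 0.00848 in edgeR). Man1a had 17.2, 8.73 and 9.32 CPM in FP libraries, against 3.48, 4.16 and 4.46 CPM in PBS libraries. Its log2 fold change was 1.54 (SE 0.31, adjusted p = 0.0413 in edgeR), with 1 FP library (c1) well above the other 2. Plekha5 had 13.5, 12.2 and 9.65 CPM in FP libraries, against 3.68, 5.37 and 3.88 CPM in PBS libraries, groups that lay far apart. Its representative peak missed the threshold (log2 fold change 1.46, SE 0.33, adjusted p = 0.094 in edgeR). At 0.75 h this region had the smallest FP fold change of the 11. Gm13481 had 15.5, 10.2 and 8.2 CPM in FP libraries, against 3.88, 5.9 and 4.02 CPM in PBS libraries, with a log2 fold change of 1.30 (SE 0.33) that did not pass (adjusted p = 0.182 in edgeR). Abhd18 was spread widely, at 12, 8.5 and 4.08 CPM in FP libraries, against 3.17, 3.09 and 2.81 CPM in PBS libraries. Aven and the Naf1 intronic region were the 2 whose groups overlapped at the representative peak, with log2 fold changes of 0.62 and 0.71. The neighbouring part of the Aven region had 11.7, 13.2 and 12.2 CPM in FP libraries, against 5.26, 3.69 and 6.69 CPM in PBS libraries. Those groups lay apart, and its log2 fold change of 1.24 (SE 0.28) did not pass (adjusted p = 0.109 in edgeR). In the Naf1 intronic region 1 PBS library (c2) had 10.9 CPM, against 1.98 and 3.73 CPM in the other PBS libraries.

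The calls at 16 h rested on few libraries. Without FP c2, FP c3, PBS c1 or PBS c3 no member peak passed, and without FP c1 or PBS c2 only 1 did, the Naf1 promoter. The fold changes of all 11 regions stayed positive in each of these fits, with medians from 1.01 to 1.45. DESeq2 called 43 of the 247 member peaks to which it gave an adjusted p, against 0.634% of all such peaks, and 5 of the 11 regions (Jazf1, Gm13481, Plekha5, Man1a and the Naf1 promoter). Library totals were 20.8 to 28.7 M in FP and 17.1 to 23.6 M in PBS libraries of 16 h, and scaling by totals alone, in place of TMM factors, left 1 member peak called. The Treg and T cell markers summed to 65.2 to 80.5 CPM in FP and 58 to 78.2 CPM in PBS libraries, and B cell markers to 4.22 to 8.49 CPM in FP and 3.29 to 5.42 CPM in PBS libraries. The part of depth and of marker levels in the result was not tested.

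No opening was detected after IL2 at 16 h. The Man1a region had 5.81, 5.77 and 6.59 CPM in IL2 libraries, against 3.48, 4.16 and 4.46 CPM in PBS libraries, and the Aven region had 12.4, 15.3 and 11.6 CPM in IL2 libraries, against 11.2, 10 and 9.26 CPM in PBS libraries. Those were the 2 of 11 regions whose IL2 libraries lay wholly above PBS, where 4.49% of all peaks did. Sgpp1 had 4.16, 3.49 and 5.91 CPM in IL2 libraries, inside or beside the 3.6, 5.57 and 4.85 CPM of PBS libraries. The fold changes ran from -0.31 (Jazf1) to 0.59 (Man1a), 7 of 11 were positive and the median was 0.05. No region of the 11 and 0 of 306 member peaks passed as a rise or a fall (edgeR, background 0%), and 11 member peaks had an unadjusted p under 0.05 (3.62% of all tested peaks had). DESeq2 called none of the 311 member peaks, where it called 0.000953% of all peaks. Totals did not overlap between these groups, at 28.3 to 38.6 M in IL2 and 17.1 to 23.6 M in PBS libraries, and the Treg and T cell markers also differed, at 80.4 to 97.3 CPM in IL2 and 58 to 78.2 CPM in PBS libraries, and their part in the result was not tested. With the library total as a covariate the median fold change was 0.41, 8 were positive and 0 of 11 passed.

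FP and IL2 libraries of 16 h were also set directly against each other. All 11 regions were higher in FP on average, with a median log2 fold change of 0.99, where the median of all tested peaks was -0.02. In 7 of 11 regions the FP libraries lay wholly above the IL2 libraries, against 5.7% of all tested peaks. The Naf1 promoter, with 42.4, 51.6 and 54.2 CPM in FP libraries against 25, 25.2 and 21.2 CPM in IL2 libraries, was the 1 member peak of 306 that passed, where 0.141% of all tested peaks did. Its log2 fold change was 1.05 (SE 0.20, adjusted p = 0.0276 in edgeR), and the call was lost without any single FP or IL2 library (adjusted p from 0.0664 to 0.192), with scaling by library totals (adjusted p = 0.0922) and with the total as a covariate (adjusted p = 0.332). Jazf1 came next among the 11, with 10.8, 9.59 and 12.6 CPM in FP libraries, against 4.12, 3.82 and 5.19 CPM in IL2 libraries. Its groups lay well apart and its log2 fold change was 1.33 (SE 0.29, adjusted p = 0.0759 in edgeR). DESeq2 called 36 of 311 member peaks, against 0.434% of all peaks, and 4 of the 11 regions. At 0.75 h the same 11 fold changes of FP over IL2 were all negative, from -1.32 (Plekha5) to -0.25 (Jazf1), in the libraries that chose the regions. That choice favoured high IL2 values at 0.75 h, so no change between the times is read from these signs. The other 377 opened regions, chosen likewise, had 0 positive values. The labels give 20 µg of FP and 5 µg of IL2, so these are comparisons of the 2 injections and not of matched doses. Library totals were 20.8 to 28.7 M in FP and 28.3 to 38.6 M in IL2 libraries of 16 h, and the Treg and T cell markers summed to 65.2 to 80.5 CPM in FP and 80.4 to 97.3 CPM in IL2 libraries. Both ranges barely touched, and their part in the result was not tested.

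**Figure D3:**
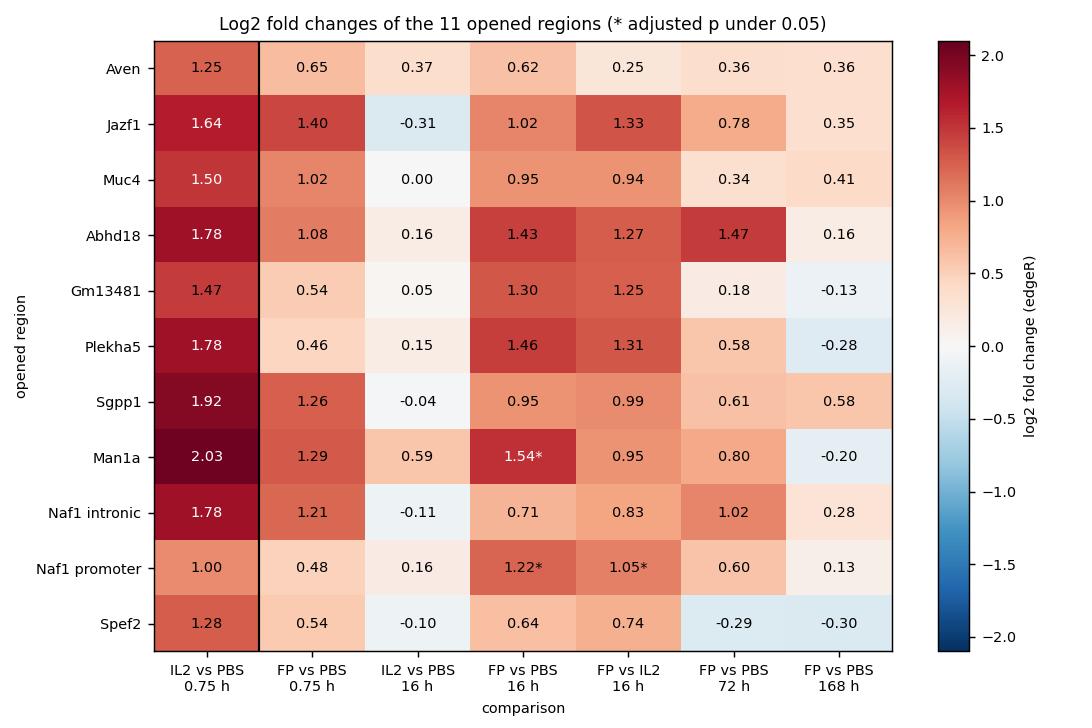
Log2 fold changes from edgeR for the 11 opened regions (rows) in 7 comparisons (columns), red where the group named first is higher. The first column chose the regions and carries no mark of significance. Stars in the other columns mark adjusted p under 0.05, and they stand at Man1a and the Naf1 promoter for FP against PBS at 16 h and at the Naf1 promoter for FP against IL2.

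By 72 h the FP effect was smaller in 9 of 11 regions, and no region passed. The Naf1 promoter had 34.1, 29.2 and 30.4 CPM in FP libraries, against 19.6, 20.9 and 21.2 CPM in PBS libraries, groups that were still apart (log2 fold change 0.60, SE 0.15, adjusted p = 0.93 in edgeR). The Naf1 intronic region had 8.08, 7.45 and 6.42 CPM in FP libraries, against 4.5, 3.12 and 3.2 CPM in PBS libraries, with a log2 fold change of 1.02 (SE 0.26) that did not pass (adjusted p = 0.93 in edgeR). Abhd18 had 5.78, 5.58 and 4.83 CPM in FP libraries, against 2.71, 0.307 and 2.65 CPM in PBS libraries, and its log2 fold change of 1.47 (SE 0.56) did not pass (adjusted p = 0.93 in edgeR) and was 1.02 without PBS replicate 2, the library at 0.307 CPM. Spef2 alone had a negative value, -0.29. In all, 10 of 11 fold changes were positive with a median of 0.60, and 6 of 11 regions had FP libraries wholly above PBS, against 5.96% of all tested peaks. No member peak of 304 was called (edgeR, background 0%), with 49 at an unadjusted p under 0.05, where 5.21% of all tested peaks were. Of the 49, 33 were peaks risen with IL2 that overlap within the 11 regions, and by region 5 of 11 had such a p. DESeq2 called 0 of the 232 member peaks to which it gave an adjusted p, where it called 0.207% of all such peaks. B cell markers summed to 8.27 to 9.79 CPM in FP and 5.64 to 8.13 CPM in PBS libraries of 72 h, and the myeloid list to 3.52 to 4.56 CPM in FP and 4.86 to 5.56 CPM in PBS libraries. Neither list overlapped between the groups, while the Treg and T cell, NK cell, CD8 T cell and erythroid lists did. The part of marker levels in the result was not tested.

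At 168 h nothing of the opening was detectable in these regions. Fold changes of FP over PBS ran from -0.30 (Spef2) to 0.58 (Sgpp1), 7 of 11 were positive and the median was 0.16. FP and PBS libraries overlapped in all 11 regions, where 3.63% of all peaks had FP wholly above PBS. No member peak of 305 passed (edgeR, background 0%), and 7 had an unadjusted p under 0.05, where 4.54% of all tested peaks had. DESeq2 called 0 members, but it gave an adjusted p to 61 of the 311 member peaks and to 3 of the 11 regions only, so that its count says little here (it called 0.236% of the peaks it adjusted). The Naf1 promoter had 29.3, 27.9, 24.5 and 25.5 CPM in FP libraries, against 23.9, 25.3 and 24.3 CPM in PBS libraries, values that cannot be told apart beyond their spread (log2 fold change 0.13, SE 0.16). Without PBS replicate 1 and FP replicate 2, the 2 libraries that stood apart, the median was -0.10 and 5 of 11 were positive.

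The change in FP effect between times was tested in one fit of all 31 libraries. From 16 h to 168 h the FP effect was lower in 11 of 11 regions, with a median difference of -0.93 on the log2 scale, where the median of all 104520 tested peaks was 0.02. No region passed (background of falls 0.0201% in edgeR), the lowest adjusted p being 0.123 at the Naf1 promoter, with a difference of -1.08 (SE 0.24), and 5 of 11 had an unadjusted p under 0.05, where 4.9% of all tested peaks had. Man1a had the largest difference, -1.73 (SE 0.42, adjusted p = 0.204 in edgeR). From 16 h to 72 h the median difference was -0.57, none of the 11 passed (background of falls 0.000957%) and 3 had an unadjusted p under 0.05, where 2.97% of all tested peaks had. DESeq2 was not run on these differences, and neither was a fit without the 2 libraries of 168 h that stood apart.

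The opened regions were set beside the rest of their loci and beside the opened regions of other genes. At 16 h the other 143 regions of the loci, of which 138 were tested, had a median FP fold change of 0.12 and none was called, which with a background of 0.114% is no result about them. The nearest to the threshold was an intronic region of Gm13481 (adjusted p = 0.0621 in edgeR). The other 377 regions opened by IL2 had a median of 1.18, and 77 of them were called (20.4%), while 2 of the 11 were (18.2%). At 72 h the medians were 0.60 in the 11 regions, 0.42 in the other opened regions and -0.15 in the other regions of the loci. At 168 h they were 0.16, -0.04 and -0.11. These sets were described by counts and medians only, and no test of their difference was made.

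**Figure D4:**
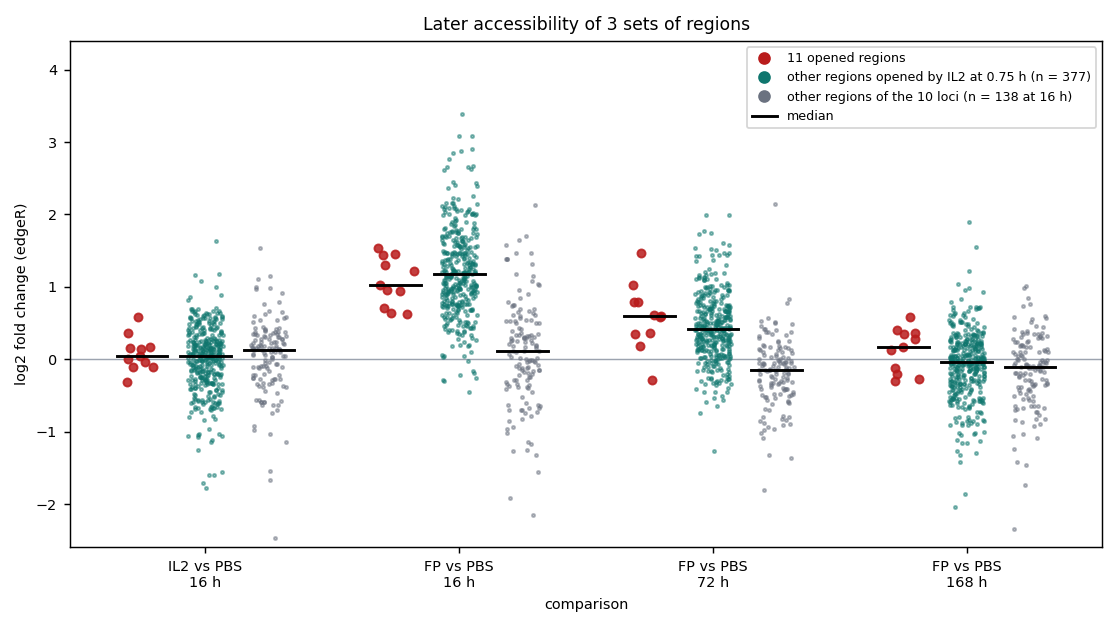
Log2 fold changes from edgeR at 16, 72 and 168 h for the 11 opened regions, the other 377 regions opened by IL2 at 0.75 h and the other regions of the 10 loci, 1 point per region with a random sideways shift, and the median as a bar. For FP against PBS at 16 h the medians are 1.02, 1.18 and 0.12, and for IL2 against PBS at 16 h all 3 medians lie between 0.05 and 0.13.

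The other promoters of these loci were looked at next. Among the regions with no peak risen with IL2 at 0.75 h, 13 were labelled promoter, and by that choice none of them could be a rise in that contrast. In edgeR 0 of 13 were called for FP at any time or for IL2 at 16 h. The background was 0.00199% for FP at 0.75 h, 0.114% for FP at 16 h and 0% for the rest, so a count of 0 in 13 is no result about them. The Aven promoter (chr2:112492480-112493904), at 38.7 CPM in PBS libraries of 0.75 h, had log2 fold changes of -0.15 for IL2 at 0.75 h and 0.27 for FP at 16 h. The larger Man1a promoter (chr10:54074706-54076332), at 87.9 CPM, had -0.12 and 0.32. A second Naf1 promoter region (chr8:66859864-66860513), just left of the opened one, had -0.02 and 0.19. At the start of Jazf1, Sgpp1, Plekha5 and Abhd18 the fold changes of IL2 at 0.75 h ran from -0.47 (Plekha5) to -0.04 (Abhd18), and those of FP at 16 h from -0.15 (Sgpp1) to 0.41 (Jazf1). The Spef2 promoter (chr15:9748049-9749209) had the highest FP value of the 13 at 16 h, 0.75 (adjusted p = 0.232 in edgeR), with 0.49 for IL2 at 0.75 h. The lowest FP value at 16 h was -1.92, at a Plekha5 region labelled promoter (chr6:140577616-140577946) that had 1.68 CPM in PBS libraries of 0.75 h (adjusted p = 0.712 in edgeR).

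Known targets and components of the pathway were counted in the same way. A list of 27 genes of IL-2 and STAT5 signalling held 281 peaks, 279 of them tested at 0.75 h. Of these, 8 rose with IL2 (background 0.488%), 5 in Bcl2, 2 in Cdk6 and 1 in Lta. No other gene of the list had a rise in that contrast, and Cish, Socs1, Socs2, Socs3, Il2ra, Pim1, Myc, Stat5a and Stat5b were among those without. Bcl2 encodes the inhibitor of apoptosis that IL-2 maintains in T cells, Cdk6 a kinase of cell cycle entry and Lta the cytokine lymphotoxin alpha. The 5 risen Bcl2 peaks lay in 5 separate regions, unlike those of the 10 loci, which put Bcl2 just outside the rule with more distinct elements than any locus inside it. At 0.75 h FP had 1 rise in the list, in Bcl2, one of the 2 among all tested peaks (0.00199%). At 16 h FP had 3 rises in the list against PBS (2 in Bcl2 and 1 in Cdk6, background 0.114%) and 4 against IL2 (background 0.141%). IL2 had none against PBS at 16 h, with 8 of 281 at an unadjusted p under 0.05 in edgeR, where 3.62% of all tested peaks were. At 72 and 168 h FP had none, with 15 of 281 and 11 of 279 at an unadjusted p under 0.05, where 5.21% and 4.54% of all tested peaks were.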

How the data were processed

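The reads had been aligned with BWA to GRCm38 (mm10), per the submitters' processing notes. MACS2 2.1.2 had called the peaks, of which those reproducible between a sample's pseudo-replicates were kept, per the series' design text. How duplicates were filtered, the common peak list built and reads counted is not given in the sources used here. What the authors deposited is whole-number counts of reads per peak and library, with no normalization, for 104979 peaks. One per-sample column is entered as an other unit because commas in gene names shift it, although it too holds deposited counts. Later times rest on the titles, since the labels' treatment protocol gives 0.75 h throughout. The 16 h columns carry the group but not the titles' numbers, and their libraries are named c1 to c3. Columns of per-sample values left out for want of a sample numbered 0.

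The loci, the pathway list, the motifs and the markers were chosen with earlier results of these data known, and opened regions were named for their locus. For each time, all its groups were fitted in edgeR 4.0.16 (R 4.3.3) with TMM factors, filterByExpr (minimum count 10, minimum total 15) and the quasi-likelihood F test, two-sided, with Benjamini-Hochberg adjustment over all tested peaks and a threshold of 0.05. Tested peaks numbered 100468, 100771, 100480 and 102580 at 0.75, 16, 72 and 168 h, and 304, 306, 304 and 305 of the 311 member peaks were among them. The biological coefficient of variation was 43.3%, 41%, 38.6% and 48%. Overlapping peaks share reads and are not independent tests. SE is the size of the log2 fold change over the square root of F, and CPM was scaled by TMM factors. Time differences came from one fit of all libraries. DESeq2 1.42.0 was an alternative, as were other scalings, no filter, fewer or more groups, library total as covariate, 1 peak per region, a replicate block and leaving out each library. The procedure was tested on simulated data. Sequences and motifs were read with pysam 0.24.0 from RefSeq GRCm38, and tables and figures were made with Python 3.11.15, pandas 2.3.3, numpy 2.4.6, scipy 1.17.1 and matplotlib 3.10.9. Named regions are the opened region of each locus, its widest risen peak, and promoters nearest the gene's start.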

Additional observations from a re-analysis of the deposited data

Results flagged for a closer look

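In the Naf1 intronic region 1 FP library of 168 h, replicate 2, had 11 CPM, where the other 3 FP libraries had 4.33 to 4.9 CPM. In the Plekha5 region the same library had 9.21 CPM, where the others had 3.56 to 4.41 CPM. Both gaps exceed Dixon's criterion for 4 samples, which chance passes in about 1 of 20 groups, and 11 groups of 4 were examined. FP replicate 2 of 168 h has 12.3 M counts (M, mega) and is among the 2 libraries that correlate least with the rest, and the part of depth in these values was not tested.

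The effects of FP and IL2 at 16 h differed at the Naf1 promoter by a direct test of FP against IL2, with a log2 fold change of 1.05 (adjusted p = 0.0276 in edgeR, FP libraries higher in 3 of 3). Across the alternatives that keep all libraries, adjusted p ran up to 0.332.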

How the results depend on the processing

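Counts of member peaks called moved most. For IL2 against PBS at 0.75 h, 81 became 42 with library total as a covariate and 19 to 84 without each library in turn. It became 10 with 1 peak per merged region, where 10 of the 11 opened regions kept their widest risen peak and all 10 passed. Of the 11 opened regions 7 held a risen peak at an adjusted p under 0.01. For FP against PBS at 0.75 h, 0 became 27 in DESeq2. For FP against PBS at 16 h, 6 became 1 with library totals, 21 with the covariate, 3 with 1 peak per region, 13 with only the 2 groups, 43 in DESeq2, 13 with all 31 libraries in the fit, and 0 to 12 without each library. For FP against IL2 at 16 h, 1 became 0 with library totals, 0 with the covariate, 36 in DESeq2, 4 with all 31 libraries, and 0 to 5 without each library. A fit with 1 peak per region holds fewer member peaks by design, and the cause of the other shifts was not tested. Replicate numbers were not taken as pairs, since not every same-numbered r of deviations exceeded 0.1. At 0.75 h all 9 such r were positive (0.00379 to 0.242, 4 of them over 0.1), against -0.235 to 0.0612 between different numbers. They were -0.19 to 0.584 at 72 h and -0.228 to 0.416 at 168 h, and not every library correlated best with its own number. A replicate block made 19 calls for FP against PBS at 0.75 h, Jazf1, Sgpp1 and Man1a among them (adjusted p = 0.0306, 0.0135 and 0.0359 in edgeR), and at 16 h no paired analysis was possible because the columns carry no numbers of the titles.

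Single calls at 16 h shifted too. Man1a in FP against PBS was lost with library totals (adjusted p = 0.152), the Naf1 promoter with the covariate (adjusted p = 0.0601), and Gm13481 was gained with the covariate (adjusted p = 0.0459, all in edgeR). No fold change of FP over PBS at 0.75 or 16 h changed sign in any alternative.

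Signs turned where values were near 0. For IL2 at 16 h the covariate gave -0.15 at Aven, -0.83 at Muc4, 0.29 at Sgpp1, 2.02 in the Naf1 intronic region and 0.18 at Spef2. Muc4 was -0.01 with RLE factors and -0.02 with totals, Sgpp1 0.02 with totals, and Gm13481 -0.09 at its most abundant peak. Leaving out each library gave -0.32 to 0.31 at Muc4, -0.52 to 0.46 at Abhd18, -0.23 to 0.26 at Gm13481, -0.22 to 0.39 at Plekha5, -0.28 to 0.12 at Sgpp1, -0.53 to 0.83 in the Naf1 intronic region and -0.34 to 0.04 at Spef2. FP against IL2 at 16 h was -0.06 in the Naf1 intronic region with the covariate. FP at 72 h was -0.15 to 0.40 at Gm13481 without each library. FP at 168 h was -0.11 to 0.78 at Abhd18, -0.26 to 0.01 at Gm13481, -0.39 to 0.04 at Man1a and -0.14 to 0.50 in the Naf1 intronic region without each library, and 0.15 at Plekha5 with the covariate. Without PBS replicate 1 and FP replicate 2 of 168 h together, chosen after seeing the data, it was -0.17 at Jazf1 and -0.10 in the Naf1 intronic region. PBS means of the 11 regions at 16 h ran from 3.02 to 21.3 CPM, and what depth contributes to calls missed was not tested.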
